A study of Mus musculus with 6 samples.

Results

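The tumour suppressor gene Trp53 and 9 genes known as its direct targets (Cdkn1a, Mdm2, Ccng1, Phlda3, Zmat3, Sesn1, Btg2, Aen and Trp53inp1) were followed in BV2 cells, which are mouse microglia kept as an immortalized culture. The genes were chosen by name as known p53 targets, and all 10 were among the 46095 gene symbols of the count table. Untreated BV2 cells (CON group, 3 libraries) were compared with BV2 cells that were given recombinant sTREM-1, the soluble form of the receptor TREM-1, at 1 μg/mL for 6 h (sTREM-1 group, 3 libraries). The comparison was meant to show how the soluble receptor changes the transcripts of microglia. Both groups are the same line, which was made with a retrovirus that carries raf and myc oncogenes, and no library of cells given a control protein was analysed. Nothing in the labels says that the 3 libraries of a group came from separate cultures, so the p-values measure the spread between these libraries.

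p53 is a transcription factor that is held at a low level by MDM2, a ubiquitin ligase that marks it for degradation and whose gene is itself a p53 target. When DNA damage or oncogene signals free p53 from MDM2, it binds paired half-sites near its target genes and raises transcripts for cell cycle arrest, DNA repair, metabolic restraint and apoptosis. Much of this control acts on the p53 protein, so the level of Trp53 transcript need not follow its activity. In microglia and other macrophages the pathway is studied in relation to proliferation, survival and death.

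The total was 40070633 to 45877107 counts per library, and 14120 genes had enough counts to be tested. Counts of 2 libraries differed with a chi-square per gene of 3.46 to 5.03 within groups and of 20.4 to 22.4 between groups, both above sampling noise. Each library was kept as a replicate, though such a spread does not show that the libraries came from separate cultures. The myeloid identity of the cells was checked on 13 markers, of which 12 were tested. Csf1r, Cd68, Itgam and Adgre1 were abundant in every library, while P2ry12, Tmem119 and Cx3cr1 stayed between 0.563 and 2.18 CPM (read counts scaled to library size, with TMM factors). Aif1, which encodes the microglial marker IBA-1, was listed at 0 in all 6 libraries. The summed level of the 13 markers ran from 3060 to 3090 CPM in the CON group and from 3371 to 3434 CPM in the sTREM-1 group, with 5 of 12 higher (16.5% of all tested genes were higher) and 0 lower, and its part in the results was not tested. Of 14 markers of astrocytes, neurons, oligodendrocytes, fibroblasts and lymphocytes, 6 were at 0 in all libraries (Aqp4, Rbfox3, Mog, Col1a2, Dcn and Cd3e), and their summed level ran from 7.48 to 8.13 CPM in the CON group and from 5.79 to 7.49 CPM in the sTREM-1 group.

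The p53 response element is a pair of 10-base half-sites, and it was searched for in RefSeq promoter windows (GRCm38.p6), which run from 250 bases before to 50 bases after a gene's start. Of the 10 genes, 8 had at least 1 window, 11 windows in all. Zmat3 and Trp53inp1, the genes called lower in the sTREM-1 group, had none and could not be searched. A match was 20 bases of 2 adjacent half-sites that kept the C and G at the core of each and differed from the consensus at 1 other base at most. The consensus reads alike on both strands. Only 22 of 32851 windows (0.0670%) held such a match, and among the 10 genes Cdkn1a and Ccng1 did. Their windows are shown because both genes were also higher in the sTREM-1 group, and the capitals mark the 20 bases. Since they were picked by direction, and the genes called lower had no window, they do not tie a match to a rise. The Cdkn1a window belongs to the first of its 2 starts (chr17:29090729-29091028, plus strand), which lies 2790 bases upstream of the other, and the Ccng1 window is chr11:40755237-40755536, minus strand.
Cdkn1a: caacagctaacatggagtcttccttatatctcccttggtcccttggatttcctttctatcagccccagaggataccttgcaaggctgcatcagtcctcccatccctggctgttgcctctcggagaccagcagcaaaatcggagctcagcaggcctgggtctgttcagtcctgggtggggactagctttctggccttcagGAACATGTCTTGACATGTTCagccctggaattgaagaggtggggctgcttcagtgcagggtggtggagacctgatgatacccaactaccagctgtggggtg
Ccng1: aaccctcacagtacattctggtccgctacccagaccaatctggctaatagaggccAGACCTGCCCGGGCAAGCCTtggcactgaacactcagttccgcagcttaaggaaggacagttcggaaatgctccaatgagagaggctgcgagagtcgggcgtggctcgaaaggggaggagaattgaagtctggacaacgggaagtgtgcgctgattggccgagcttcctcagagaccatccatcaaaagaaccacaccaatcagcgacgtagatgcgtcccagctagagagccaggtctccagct

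In Cdkn1a, which encodes the cyclin-dependent kinase inhibitor p21, the match started 51 bases before the first start and differed from the consensus at position 11, counted from its 5′ end. Both of its cores read CATG, and CATG, any 6 bases and CATG again, a motif that overlaps the consensus, leaves the bases around the cores free and is the same on both strands, was found in 234 windows (0.712%). The window of the second Cdkn1a start held no match. In Ccng1, which encodes cyclin G1, the match started 195 bases before the start and differed at position 5. The single half-site, with no mismatch, is far more common and was present in 8.36% of all windows. It was present in 7 of the 11 windows, those of 6 of the genes (Trp53, Mdm2, Ccng1, Cdkn1a, Aen and Sesn1). The windows of Aen overlap, with starts 131 bases apart, and share the same half-site. By gene, 2582 of 27025 had a half-site in a window. The genes here were picked as known p53 targets, so a higher share among them is not a test. The window of Trp53 (chr11:69580109-69580408, plus strand) is shown for comparison, because Trp53 was also higher. Its best 20 bases, in capitals, differed from the consensus at 3 bases, and 1.38% of windows held 20 bases with at most 3 such differences. Aen and Sesn1, which were not called higher or lower, also had windows whose best 20 bases differed at 3 bases.
Trp53: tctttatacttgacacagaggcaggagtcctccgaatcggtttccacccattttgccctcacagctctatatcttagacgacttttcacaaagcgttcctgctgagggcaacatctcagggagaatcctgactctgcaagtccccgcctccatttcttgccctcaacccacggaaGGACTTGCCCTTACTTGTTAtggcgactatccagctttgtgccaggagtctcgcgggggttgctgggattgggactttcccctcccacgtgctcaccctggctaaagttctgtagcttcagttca

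A match of letters does not show that p53 binds there, and elements outside the windows, such as those inside genes, were not searched.

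After sTREM-1, the p53 genes changed in both directions. Of the 10 genes, 9 were tested and Phlda3 was listed at 0. By the quasi-likelihood test of edgeR, with a threshold of 0.05 on the adjusted p, 3 rose (Trp53, Cdkn1a and Ccng1), 2 fell (Zmat3 and Trp53inp1) and 4 did not pass (Mdm2, Sesn1, Btg2 and Aen). Of all tested genes, 30.5% passed the same test (16.5% higher and 14.1% lower). The largest change among the 9 genes was -19.9%, in Trp53inp1. The median log2 fold change of the 9 genes was 0.02, against -0.0017 for all tested genes. The groups did not overlap for 6 of the 9 genes, 3 in each direction, and for 40.7% of all tested genes (21.3% higher and 19.4% lower). The number that passed fell to 3 without CON replicate 3 and to 3 without sTREM-1 replicate 2. Without CON replicate 2, 4 were higher and 0 lower, since neither Zmat3 nor Trp53inp1 then passed. With all 6 libraries none of the 9 reached a 1.5-fold change. At least that change with an adjusted p under 0.05 was reached by 301 of the 14120 tested genes. In RNA of whole cultures, a different share of cells and a different amount of RNA per cell cannot be told apart.

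**Figure D1:**
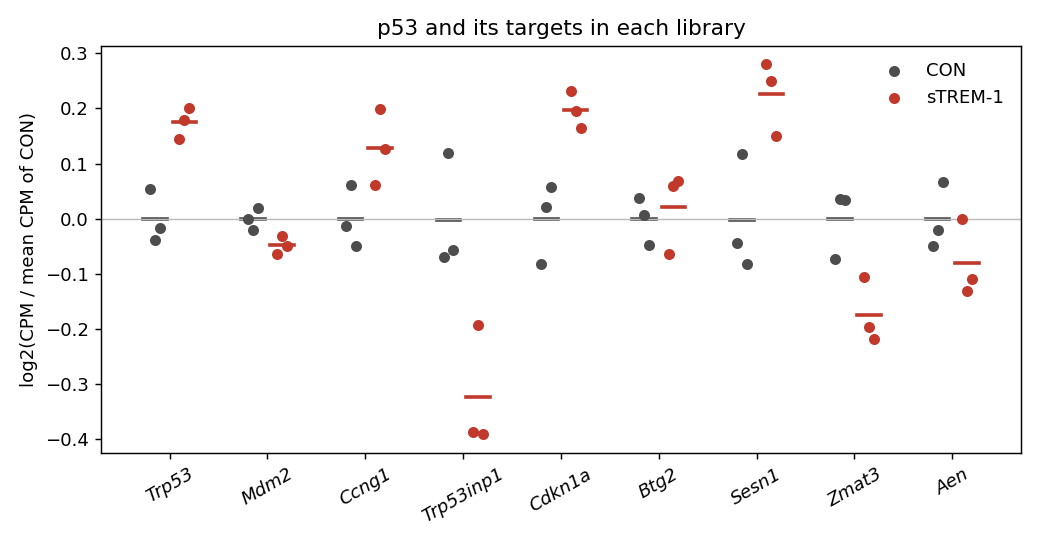
Each point is 1 library, as log2 of its CPM over the mean CPM of the 3 CON libraries, for the 9 tested genes, with short lines at the means (grey, CON; red, sTREM-1). Trp53, Cdkn1a and Sesn1 had all 3 sTREM-1 libraries above the CON libraries, Trp53inp1, Zmat3 and Mdm2 had them below, and those of Ccng1, Btg2 and Aen overlapped with CON.

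Trp53 itself lies on chromosome 11 of GRCm38 from 69580359 to 69591873, on the plus strand. Its transcript was at 125.8, 118.0 and 119.8 CPM in the CON libraries and at 134.0, 137.3 and 139.2 CPM in the sTREM-1 libraries. All 3 sTREM-1 libraries were above all 3 CON libraries. The mean rose from 121 ± 4.04 to 137 ± 2.64 CPM (SD, n = 3 each), or 0.17 in log2 fold (standard error 0.03; edgeR, adjusted p = 6.1e-05). In fold, this was 1.13 with a 95% interval of 1.08 to 1.18. A pseudogene, Trp53-ps, had 34 to 58 counts per library against 4842 to 6123 for Trp53, so that few reads were assigned to the copy. How reads that match both were counted is unknown, and such reads could be missing from either count. The other genes of the family, Trp63 and Trp73, were listed at 0 in all libraries.

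Among the genes that act back on p53, Mdm2 (chromosome 10, 117688875 to 117710758) encodes the ligase that degrades p53. It was at 187.6, 185.0 and 190.1 CPM in the CON libraries and at 179.5, 183.6 and 181.2 CPM in the sTREM-1 libraries. The sTREM-1 libraries all lay below the CON libraries, but by a small margin. Its log2 fold change of -0.05 (standard error 0.03) did not pass (edgeR, adjusted p = 0.196), and the 95% interval of the fold ran from 0.931 to 1.01. A rise of Mdm2 above 1.01-fold was thus outside the interval, in the same libraries in which Trp53 and Cdkn1a were higher.

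Ccng1 (chromosome 11, 40748552 to 40755311) encodes cyclin G1, which brings the phosphatase PP2A to MDM2. Its levels were 59.6, 62.8 and 58.1 CPM in the CON libraries and 62.7, 69.1 and 65.7 CPM in the sTREM-1 libraries. CON replicate 2 was slightly above sTREM-1 replicate 1, so that the groups overlapped. The log2 fold change was 0.13 with a standard error of 0.04 (edgeR, adjusted p = 0.0190). The call was lost without CON replicate 1, CON replicate 3 or sTREM-1 replicate 2, with adjusted p-values of 0.0666, 0.112 and 0.145 from edgeR.

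Trp53inp1 (chromosome 4, 11156431 to 11174379) encodes a stress protein that promotes p53 phosphorylation and also acts in autophagy. It had 12.2, 13.9 and 12.3 CPM in the CON libraries and 9.81, 11.2 and 9.78 CPM in the sTREM-1 libraries. Every sTREM-1 library was lower than every CON library. The log2 fold change was -0.32 with a standard error of 0.09 (edgeR, adjusted p = 0.00712), and without CON replicate 2, the highest library, it was -0.26 with an adjusted p of 0.0532.

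Cdkn1a and Btg2 act in cell cycle arrest. Cdkn1a (chromosome 17, 29090976 to 29100727), whose product p21 inhibits cyclin-dependent kinases, was at 75.2, 80.8 and 83.0 CPM in the CON libraries and at 93.6, 91.3 and 89.3 CPM in the sTREM-1 libraries. The groups were separate. The mean rose from 79.7 ± 3.999 to 91.4 ± 2.14 CPM (SD, n = 3 each), or 0.20 in log2 fold (standard error 0.04; edgeR, adjusted p = 0.00012). An unnamed transcript, AC167363.2, overlaps Cdkn1a on the opposite strand, and the counting is not stated to use strand. Its relative Cdkn1b, which encodes p27 and was added after its values were seen, had 42.2 ± 0.945 CPM in the CON group and 44.3 ± 1.33 CPM in the sTREM-1 group (SD, n = 3 each) and did not pass (edgeR, adjusted p = 0.281). Trp53cor1, the long noncoding RNA transcribed upstream of Cdkn1a and known as lincRNA-p21, was also added after its values were seen. It fell from 4.35 ± 0.288 to 3.16 ± 0.410 CPM (SD, n = 3 each), or -0.46 in log2 fold (standard error 0.15; edgeR, adjusted p = 0.0230), and thus moved against Cdkn1a.

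Btg2 (chromosome 1, 134075170 to 134079120) encodes an antiproliferative protein that recruits the deadenylase complex to mRNA. It was at 36.7, 35.9 and 34.6 CPM in the CON libraries and at 34.1, 37.2 and 37.5 CPM in the sTREM-1 libraries. The lowest and the highest library both belonged to the sTREM-1 group. The log2 fold change was 0.02 with a standard error of 0.05 (edgeR, adjusted p = 0.800), and the 95% interval of the fold ran from 0.945 to 1.09.

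Sesn1 (chromosome 10, 41809935 to 41908424) encodes sestrin 1, which restrains mTORC1 and limits oxidative stress. It was at 9.47, 10.6 and 9.23 CPM in the CON libraries and at 11.9, 11.6 and 10.8 CPM in the sTREM-1 libraries. The groups did not overlap. With 0.23 in log2 fold (standard error 0.09), Sesn1 missed the threshold (edgeR, adjusted p = 0.0586). It passed without CON replicate 2 or sTREM-1 replicate 3 (edgeR, adjusted p = 0.0314 and adjusted p = 0.0453). Its paralog Sesn2, tested among the metabolic targets, was higher in the sTREM-1 group, and Sesn3 was listed at 0 in all libraries. The annotated gene 9930024M15Rik overlaps Sesn1 on the same strand, so reads of the shared part could belong to either. Sesn1 had 377 to 542 counts per library, and counting error alone was 4.74% of its mean count, against 1.67% for Cdkn1a.

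Zmat3 (chromosome 3, 32334792 to 32366014) encodes a zinc finger protein that binds RNA. It was at 24.4, 26.3 and 26.3 CPM in the CON libraries and at 23.8, 22.4 and 22.1 CPM in the sTREM-1 libraries. The groups were separate by a narrow gap between CON replicate 1 and sTREM-1 replicate 1. Its log2 fold change of -0.17 (standard error 0.06) passed (edgeR, adjusted p = 0.0333). The call was lost without CON replicate 2 or 3 or sTREM-1 replicate 2 or 3 (edgeR, adjusted p = 0.113, adjusted p = 0.112, adjusted p = 0.0923 and adjusted p = 0.102).

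Of the apoptosis genes, Aen (chromosome 7, 78895854 to 78911209) encodes a nuclease that promotes apoptosis. It was at 20.4, 20.9 and 22.2 CPM in the CON libraries and at 21.1, 19.3 and 19.6 CPM in the sTREM-1 libraries. The groups overlapped. The log2 fold change was -0.08 with a standard error of 0.07 (edgeR, adjusted p = 0.425), and the 95% interval of the fold ran from 0.861 to 1.04.

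Phlda3 (chromosome 1, 135766119 to 135769136), whose product competes with AKT for membrane lipids and so restrains AKT, had 0 counts in all 6 libraries. A count of 0 allows a level of up to 0.0657 to 0.0756 CPM per library, at 3 counts. The limit covers counting error only, and Aif1 was at 0 in the same table.

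**Figure D2:**
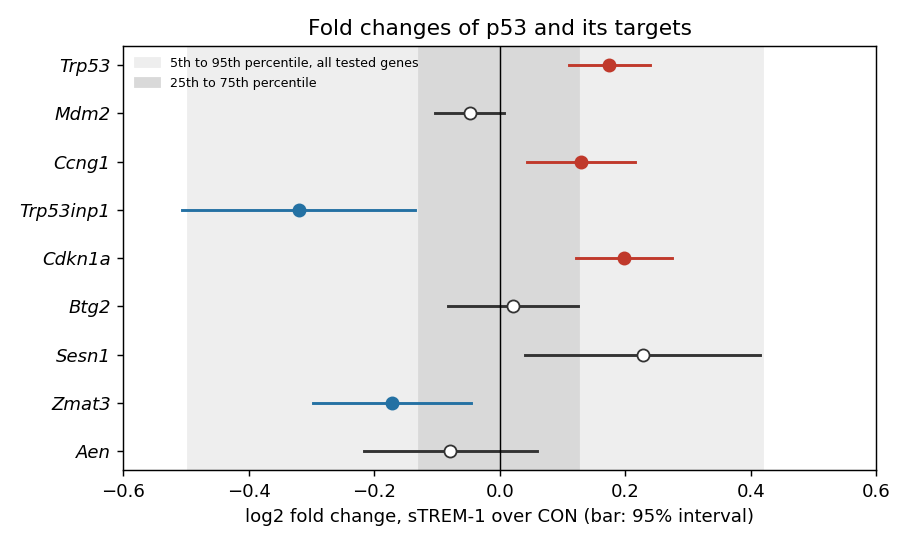
Points are log2 fold changes of sTREM-1 over CON for the 9 tested genes and bars are 95% intervals (red, higher; blue, lower; open, not passing at an adjusted p under 0.05). The grey bands hold the middle of all tested genes, from -0.13 to 0.13 and from -0.50 to 0.42, and each gene lies inside the wider band.

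To compare genes with each other, CPM was divided by the length of the exons of each gene in GENCODE M21. On this scale the level in the CON group was highest for Mdm2, at 36.9 ± 0.510 CPM per kilobase (SD, n = 3). Trp53 followed at 29.96 ± 1.00, Cdkn1a at 22.4 ± 1.13 and Ccng1 at 17.1 ± 0.677 CPM per kilobase (SD, n = 3 each). Btg2 was at 13.01 ± 0.386 CPM per kilobase. The other 4 were low, with Aen at 3.65 ± 0.155, Sesn1 at 2.45 ± 0.184, Zmat3 at 2.24 ± 0.0952 and Trp53inp1 at 1.98 ± 0.148 CPM per kilobase (SD, n = 3 each). In the CON group the ranges of all neighbours in this order were separate except those of Zmat3 and Trp53inp1, and in the sTREM-1 group the order was the same and all neighbours were separate. Mdm2 and Trp53 came closer, at 35.7 ± 0.403 and 33.8 ± 0.652 CPM per kilobase in the sTREM-1 group (SD, n = 3 each). Exon length is the sum over all annotated transcripts, so a gene expressed from a short transcript is understated.

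**Figure D3:**
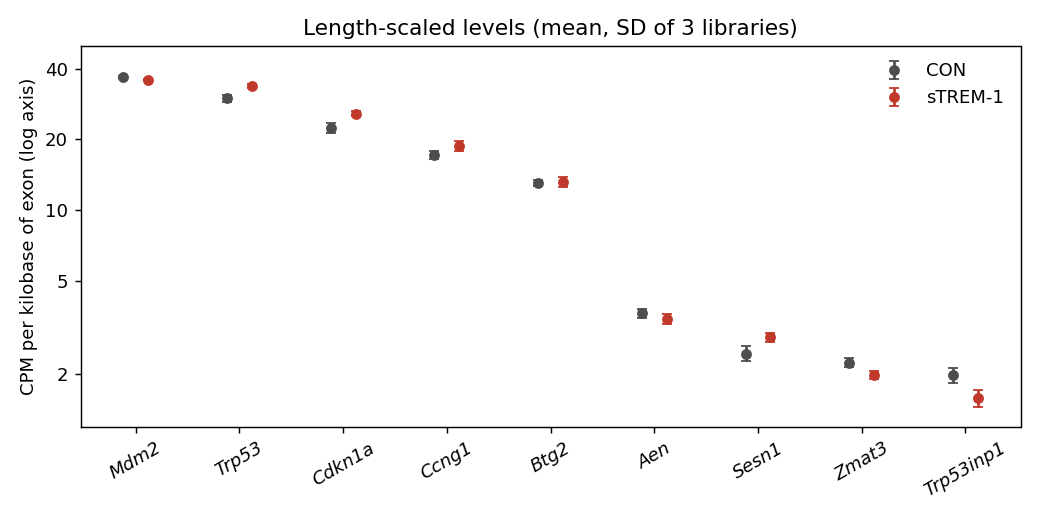
Mean level of the 9 tested genes in CPM per kilobase of exon, on a log axis, with SD over 3 libraries (grey, CON; red, sTREM-1). In the CON group Mdm2 and Trp53 stood at 36.9 and 29.96 and Trp53inp1 at 1.98, and the order was the same in both groups.

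The rest of the pathway was read from lists compiled by hand from general knowledge, and whether each listed target is a direct one was not checked. The other listed p53 targets, 47 genes in 4 lists, also changed in both directions. Of them 43 were tested, 13 rose, 7 fell and 23 did not pass (edgeR, adjusted p under 0.05), which is 46.5% of those tested against 30.5% of all tested genes. Their median log2 fold change was 0.06. Without sTREM-1 replicate 3, 8 rose and 7 fell.

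Of the 13 apoptosis targets, 10 were tested, 2 rose and 1 fell, a share of 30% that is near the 30.5% of all tested genes. The BH3-only and multidomain genes that mediate most p53-driven death did not pass. Bax was at 137 ± 3.32 CPM in the CON group and 132 ± 4.31 CPM in the sTREM-1 group (SD, n = 3 each; edgeR, adjusted p = 0.211). Bbc3, which encodes PUMA, had a fold with a 95% interval of 0.961 to 1.15 (edgeR, adjusted p = 0.442), and that of Pmaip1, which encodes NOXA, ran from 0.929 to 1.03 (edgeR, adjusted p = 0.626). Fas, the death receptor, had 8.16 ± 0.564 and 9.56 ± 0.518 CPM (SD, n = 3 each) with no overlap of the groups, and missed the threshold (edgeR, adjusted p = 0.0768). Pidd1, a death domain gene, and Siva1 rose, with log2 fold changes of 0.46 and 0.24, and Apaf1, the core of the apoptosome, fell with a log2 fold change of -0.14.

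The 14 repair and checkpoint targets, of which 13 were tested, gave 3 higher and 3 lower, or 46.2% called against 30.5% of all tested genes. The lower ones were the largest. Gadd45a, a growth arrest and DNA damage gene, was at 36.7, 34.2 and 36.1 CPM in the CON libraries and at 27.1, 26.2 and 28.7 CPM in the sTREM-1 libraries, a log2 fold change of -0.38 with a standard error of 0.05 (edgeR, adjusted p = 1.35e-06). Its relative Gadd45b fell with a log2 fold change of -0.42 and the kinase gene Plk3 with -0.29. These 3 genes had every sTREM-1 library below every CON library. The translesion polymerase gene Polh, Gtse1 and the kinase gene Plk2 rose, with log2 fold changes of 0.26, 0.24 and 0.07. Gadd45a, Gadd45b and Plk3 are known to be induced by inputs other than p53 as well, and the same can hold for listed genes that rose. Which input acted was not tested.

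All 14 metabolic and stress targets were tested, 4 rose and 3 fell, or 50% called against 30.5% of all tested genes. Ddit4, an inhibitor of mTORC1, rose from 74.6 ± 5.04 to 99.7 ± 1.76 CPM (SD, n = 3 each), or 0.42 in log2 fold (standard error 0.04; edgeR, adjusted p = 1.0e-09). Sesn2 rose with a log2 fold change of 0.18. Gls2 rose from 0.285 ± 0.134 to 0.784 ± 0.202 CPM (SD, n = 3 each) and was thus at a level of few counts. Gdf15, a secreted stress cytokine, fell from 59.7 ± 0.679 to 47.0 ± 1.11 CPM (SD, n = 3 each), or -0.35 in log2 fold (standard error 0.04; edgeR, adjusted p = 8.1e-08). Prkab1, an AMPK subunit gene, and Rps27l fell with log2 fold changes of -0.20 and -0.18.

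Of the 6 feedback and ubiquitin targets, all tested, 4 rose and 0 fell, or 66.7% called against 30.5% of all tested genes. Ccng2, the cyclin G2 gene, rose from 53.8 ± 4.04 to 68.7 ± 1.58 CPM (SD, n = 3 each), or 0.35 in log2 fold (standard error 0.04; edgeR, adjusted p = 3.0e-07). Pml, Trim8 and the ubiquitin ligase gene Rchy1 rose with log2 fold changes of 0.22, 0.14 and 0.13.

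**Figure D4:**
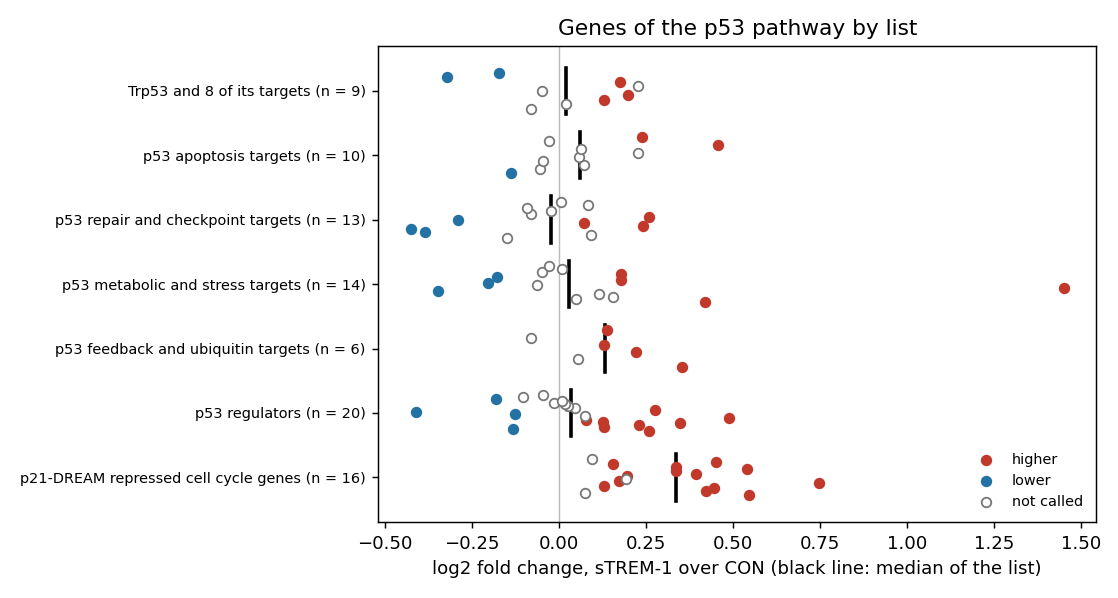
Each point is 1 tested gene, placed by its log2 fold change of sTREM-1 over CON, in the 7 lists of the p53 pathway (red, higher; blue, lower; open, not passing at an adjusted p under 0.05; black line, median). The target lists have points on both sides of 0, with medians between -0.02 and 0.13, while all 16 cell cycle genes lie above 0 with a median of 0.34.

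The 20 regulators of p53 were all tested, and 8 rose and 4 fell (60% called, against 30.5% of all tested genes). Without sTREM-1 replicate 1, 5 rose and 4 fell. Kinases that sense DNA damage and phosphorylate p53 did not move together. Atm was at 90.5, 80.5 and 83.8 CPM in the CON libraries and at 105.8, 103.1 and 96.1 CPM in the sTREM-1 libraries, a log2 fold change of 0.26 with a standard error of 0.04 (edgeR, adjusted p = 7.0e-06). Chek2 and Chek1, the checkpoint kinase genes downstream, rose with log2 fold changes of 0.35 and 0.23, while Atr fell with -0.13. The kinase gene Prkdc, on the same list, had a log2 fold change of 0.05 and did not pass (edgeR, adjusted p = 0.502). Hipk2, a kinase that phosphorylates p53 for apoptosis, rose most, from 147 ± 9.18 to 206 ± 3.35 CPM (SD, n = 3 each), or 0.49 in log2 fold (standard error 0.03; edgeR, adjusted p = 1.1e-12).

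Mdm4, the partner of MDM2 that blocks p53, was at 247, 236 and 241 CPM in the CON libraries and at 220.4, 221.1 and 223.2 CPM in the sTREM-1 libraries. All sTREM-1 libraries were lower, with a log2 fold change of -0.12 and a standard error of 0.03 (edgeR, adjusted p = 0.00041). Cdkn2a, whose locus encodes the MDM2 inhibitor ARF and p16, rose with a log2 fold change of 0.13 (edgeR, adjusted p = 0.0198), and the counts do not separate the 2 products. Of the ASPP genes, which steer p53 to apoptosis targets, Ppp1r13b and Trp53bp2 fell with -0.41 and -0.18, and the inhibitory Ppp1r13l rose with 0.28.

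Cell cycle genes that p53 lowers through p21 and the DREAM repressor complex mostly rose. Of 16 listed and tested, 13 rose and 0 fell, against 16.5% of all tested genes that rose, and the median log2 fold change was 0.34. They rose beside Cdkn1a in the same libraries. Ccnb2, a mitotic cyclin gene, rose from 17.5 ± 0.522 to 29.3 ± 1.43 CPM (SD, n = 3 each), or 0.75 in log2 fold (standard error 0.06; edgeR, adjusted p = 9.8e-11). Aurkb, Mybl2, Top2a, Ccna2 and Bub1 had log2 fold changes of 0.55, 0.54, 0.45, 0.44 and 0.42. The 3 that did not pass, Cdc25c, Birc5 and Ube2c, were named after their values were seen.

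The promoter match described above can be set beside the counts for the whole table. The 22 windows with at most 1 mismatch belong to 22 genes, of which 8 were tested. Of these, 4 rose (Cdkn1a, Ccng1, Gtse1 and Mthfd1), 1 fell (Rps27l) and 3 did not pass, or 62.5% called against 30.5% of all tested genes. Without Cdkn1a and Ccng1, already reported above as higher, 6 were tested, 2 rose and 1 fell, or 50% called. The cutoff was chosen after the sequences were seen and the genes are few, so these shares are a description and no test. With up to 2 mismatches, 42 of 106 genes were tested, 12 rose, 5 fell and 25 did not pass, and 40.5% were called. Without the first 10 genes, 40 were tested and 37.5% were called. The matches of the 3 further called genes are shown because they moved in different directions, with the core of each half-site in capitals. They lie at chr15:85859945-85859964 (Gtse1, whose product moves p53 out of the nucleus), chr12:76255090-76255109 (Mthfd1, a folate enzyme gene) and chr9:66946296-66946315 (Rps27l, a ribosomal protein paralog), all on the plus strand.
Gtse1: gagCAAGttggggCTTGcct
Mthfd1: aaaCTTGctcagaCAGGccc
Rps27l: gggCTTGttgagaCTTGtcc

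Gtse1 and Rps27l were also on the hand-compiled target lists, and Mthfd1 was on none. Mthfd1 was named after its values were seen, and it rose from 62.9 to 88.5 CPM, a log2 fold change of 0.49 with a standard error of 0.04 (edgeR, adjusted p = 2.2e-11).

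Among 9053 other genes of at least 10 CPM, those whose log2 CPM followed that of Trp53 most closely over the 6 libraries included Ddx54 and Cdk1, with a Pearson r of 0.996 and 0.995. Those closest to Cdkn1a were Evi5, Nudt19 and Thrap3, with an r of 0.994, 0.994 and 0.993. With 6 libraries in 2 groups, and all genes of a library sharing its scaling, these values describe the ranking only.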

How the data were processed

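Sequencing of BV2 cell RNA is available for 3 CON and 3 sTREM-1 libraries. The paper's methods give a larger n where the seeding of the cells is described, and no reason for the difference is given. The authors checked reads with FastQC, quantified them with RSEM, and the deposited table holds whole-number counts for each symbol, not normalized. The submitters' processing notes list HISAT2 2.0.4 and the human builds hg19 and GRCh38, with no role given. The mouse build, annotation and use of strand are not given in the sources used here, and how reads of overlapping or near-identical genes were counted is unknown. All columns were used. Gene positions and exon lengths are from GENCODE M21 (GRCm38), and promoter sequences are from RefSeq (GRCm38.p6).

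Low counts were removed by filterByExpr (minimum count 10) and TMM factors computed. Groups were compared in edgeR 4.0.16 (R 4.3.3) by its quasi-likelihood test, without covariates and with Benjamini-Hochberg adjustment over all 14120 tested genes. The standard error is the log2 fold change divided by the root of F. The members, lists and alternatives were chosen with earlier results of these data known. Named were the members, up to 6 of the largest rises and 6 of the largest falls of each list among genes with an adjusted p under 0.05 and separate groups, some genes set by name (Bax, Bbc3, Pmaip1, Fas, Gadd45a, Mdm4, Cdkn2a, Atm, Atr, Chek1 and Chek2), and the 3 genes most like Trp53 and Cdkn1a. Some genes that this rule names are not reported here. Motif cutoffs were chosen after the sequences were seen.

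Alternatives were RLE factors, other count filters, DESeq2 1.42.0, edgeR's exact test, limma-voom (limma 3.58.1), a replicate block, leaving out each library, a 1.5-fold minimum, and, added after the data were seen, total-count scaling and a loess correction for GC content and length (span 0.3) without and with the block. The procedure was also run on simulated counts with far fewer changed genes than were called here. Its outcome is not reported, and nothing above rests on it.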

Additional observations from a re-analysis of the deposited data

How the results depend on the processing

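The number of genes called, 4312, stayed within 1.5 times under all alternatives that kept the threshold, and ran from 3608 to 3863 when each library was left out. With at least a 1.5-fold change it was 301, and the number of called members went from 5 to 0. Without each library in turn, 3 to 5 members, 15 to 20 of the other p53 targets, 9 to 12 regulators and 13 to 14 cell cycle genes were called. Replicate numbers 1 to 3 recur in both groups, but deviations of same-numbered libraries correlated at -0.018, -0.033 and -0.014 across genes, which is no hint of pairing. In a fit with a replicate block, 4613 genes and 6 members were called, since Sesn1 then passed (edgeR, adjusted p = 0.0452). With the GC and length correction and the block, 4508 genes and 4 members were called.

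The 9 tested members gave 144 values over 16 alternatives. Of these, 128 kept their direction and their side of the threshold, 11 no longer passed, 3 newly passed and 2 changed sign. The sign changes were of Btg2, which ran from -0.0032 to 0.0637 when 1 library was left out, at -0.0029 without CON replicate 3 and -0.0032 without sTREM-1 replicate 3, against 0.02. Trp53 (0.15 to 0.20) and Cdkn1a (0.16 to 0.23) passed in all 16. Zmat3 lost its call in 7, among them the GC and length correction (edgeR, adjusted p = 0.0509) and no filter on low counts (adjusted p = 0.0534); beyond the smaller number of libraries where one was left out, the cause was not tested. No scaling moved the median of all genes by more than 0.02 on the log2 scale. The split of calls did move with total counts in place of TMM, to 2026 higher and 2280 lower, against 2324 and 1988 in the main fit. The members called under it were still 3 higher and 2 lower. Counting error was largest for Sesn1 and Trp53inp1 among the tested members, at 4.74% and 4.56% of the mean count, against a spread of 7.49% and 7.47% between CON libraries.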
